A study of Sus scrofa with 6 samples.

Results

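Insulin signalling genes and the FOXO transcription factors were examined in porcine granulosa cells (GCs), the somatic cells that surround the oocyte. The 9 genes form a chain from the insulin receptor (*INSR*) through the adaptors *IRS1* and *IRS2*, the PI3K regulatory subunit *PIK3R1* and the kinases *AKT1* and *AKT2* to *FOXO1*, *FOXO3* and the glucose transporter *SLC2A4* (GLUT4). A gene was taken when its Ensembl pig gene name was one of these symbols. By this rule 7 of the 9 genes were found among the 17950 genes of the deposited table, and *IRS2* and *AKT1* were dropped because no row carried their names. Of the 7 genes, 5 had a mean level of at least 1 FPKM (a count of fragments scaled to transcript length and sequencing depth) over both groups, and *PIK3R1* and *SLC2A4* were below it.

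The GCs came from follicles of pre-pubertal Landrace gilts. The medium held 10% fetal bovine serum, and the stated recipe does not list added insulin. Unattached cells were washed off after 24 h. The cells were then infected for 72 h with the lentiviral vector pLVX-IRES-ZsGreen carrying the porcine *RBP4* coding sequence (pLVX-*RBP4* group) or with the blank vector (CTRL group), so that both groups carried the fluorescent marker. Each group had 3 libraries, but the deposited table holds 1 FPKM value per gene and group, without a spread. No test between the groups was therefore possible, and each value given is the one the authors computed over the libraries of a group. Counting error and depth cannot be read from these values. The sequencing statistics of the paper list more reads, and a larger share of mapped reads, for each pLVX-*RBP4* library than for any CTRL library. The part of this difference in the values below was not tested.

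Insulin binding activates the receptor tyrosine kinase, which phosphorylates IRS adaptors. These recruit PI3K, and the lipid it makes brings AKT to the membrane. AKT phosphorylates FOXO factors, which then leave the nucleus, and it releases GLUT4 vesicles to the cell surface in fat and muscle. In GCs this pathway acts together with FSH and IGF1 signals on growth and steroid synthesis, and FOXO1 is a known brake on GC proliferation and differentiation. RBP4 in blood is linked to insulin resistance. These steps run largely through phosphorylation and transport of proteins, which mRNA levels do not measure.

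The introduced gene was high in the group labelled for it. *RBP4* had 1.10 FPKM in CTRL GCs and 92.3 FPKM in pLVX-*RBP4* GCs. Differences below are of log2(FPKM + 1), pLVX-*RBP4* minus CTRL, a scale that understates changes at low levels. They are set beside the 12382 genes whose mean FPKM was 1 or more, whose median difference was 0.0014. Of these genes 50.2% had a higher and 49.8% a lower value in pLVX-*RBP4* GCs. A difference of at least 1.2-fold was found upward in 11.0% and downward in 8.63% of them, and 2.77% differed at least 1.5-fold either way.

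Among the chain genes the insulin receptor stood lowest by its difference, and the others were close to 0. Of the 5 genes at or above 1 FPKM, 4 had a lower and 1 a higher value in pLVX-*RBP4* GCs. One gene, *INSR*, was at least 1.2-fold lower (1 of 5, against 8.63% of all genes), none was at least 1.2-fold higher (11.0% of all genes), and none reached 1.5-fold on this scale. The median of the 5 differences was -0.060.

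**Figure D1:**
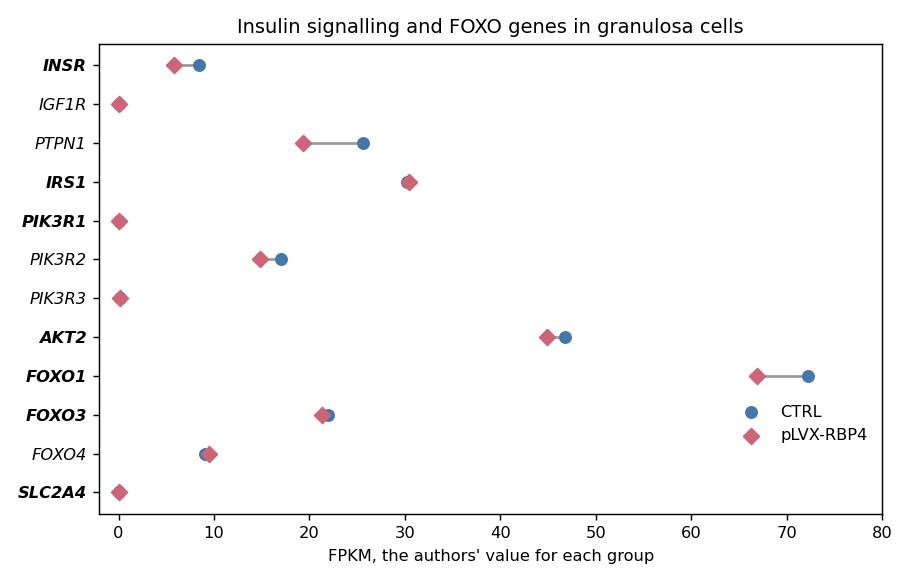
FPKM (horizontal axis, linear) of the chain genes found by name (bold) and of related genes (plain) in CTRL GCs (blue circles) and the pLVX-RBP4 group (red diamonds), with 1 value per group and therefore no error bar. *FOXO1* lies highest at 72.3 and 66.9 FPKM, *INSR* moves from 8.47 to 5.80 FPKM, and *PIK3R1*, *IGF1R* and *SLC2A4* lie at or next to 0.

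*INSR* (ENSSSCG00000013566) encodes the receptor itself. Its level was 8.47 FPKM in CTRL GCs and 5.80 FPKM in pLVX-*RBP4* GCs. The pLVX-*RBP4* value was 68.5% of the CTRL value, with a difference of -0.48 on the log2(FPKM + 1) scale and a log2 ratio of -0.55. Ranked by this difference, *INSR* was 255th from the lowest of 12382 genes, and 4.62% of all genes differed by at least as much in either direction. Its level was moderate, above that of 34.4% of the genes. The level of the related receptor *IGF1R*, which also signals through IRS adaptors, was 0 FPKM in CTRL GCs and 0.011 FPKM in pLVX-*RBP4* GCs. *INSRR*, the third receptor of this family, had 0.036 FPKM and 0 FPKM. Whether the rows of these related receptors cover their full transcripts is not known from the table, so the levels of the 3 receptor genes are not ranked.

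The adaptor gene *IRS1* (ENSSSCG00000025729), which couples the receptor to PI3K, had nearly the same level in both groups. It had 30.2 FPKM in CTRL GCs and 30.4 FPKM in pLVX-*RBP4* GCs, a difference of 0.0083. A total of 96.7% of all genes differed by at least as much. The level of *IRS1* was 3.57 times that of *INSR* in CTRL GCs and 5.25 times in pLVX-*RBP4* GCs. The values of *INSR* and *IRS1* thus moved apart within each library group, a comparison that does not depend on how the groups were scaled to each other.

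*PIK3R1* (ENSSSCG00000016958), which encodes the p85-alpha regulatory subunit of PI3K, was close to 0. It had 0.0091 FPKM in CTRL GCs and 0.043 FPKM in pLVX-*RBP4* GCs. The ratio of these values is 4.74, but both lie far below 1 FPKM, and the difference on the log2(FPKM + 1) scale was 0.048. *PIK3R2*, the gene of the p85-beta subunit, had 17.0 and 14.8 FPKM, which was 98.9% of the summed FPKM of *PIK3R1*, *PIK3R2* and *PIK3R3* in each group. *PIK3R3* had 0.182 and 0.129 FPKM. The order of the 3 subunit genes was the same in both groups. Whether the row of *PIK3R1* covers its full transcript is not known from the table. Its low level and the share of *PIK3R2* rest on that row.

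The kinase gene *AKT2* (ENSSSCG00000002989) was well expressed, above 81.8% of the genes. Its level was 46.8 FPKM in CTRL GCs and 44.9 FPKM in pLVX-*RBP4* GCs, a difference of -0.060, and 75.8% of all genes differed by at least as much.

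Of the FOXO genes, *FOXO1* (ENSSSCG00000009370) had the highest level and the largest difference. It had 72.3 FPKM in CTRL GCs and 66.9 FPKM in pLVX-*RBP4* GCs, a decrease of the value to 92.5% and a difference of -0.11. This was within the bulk of the table, since 56.8% of all genes differed by at least as much. *FOXO3* (ENSSSCG00000004387) had 22.0 and 21.3 FPKM, a difference of -0.043. *FOXO4* had 9.11 and 9.52 FPKM. The order *FOXO1*, *FOXO3*, *FOXO4* was the same in both groups. *FOXO1* held 69.9% of the summed FPKM of the 3 genes in CTRL GCs and 68.4% in pLVX-*RBP4* GCs, and it was 3.29 and 3.14 times as high as *FOXO3*. Whether neighbours in this order differ beyond the spread between libraries is not known from 1 value per group.

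*SLC2A4* (ENSSSCG00000023915), the insulin-responsive transporter of fat and muscle, was listed at 0 in both groups. A value of 0 in this table is not a sure sign that a gene is silent, because genes used in every cell, such as the histone deacetylase *HDAC1*, the purine salvage enzyme *APRT* and the small nucleolar ribonucleoprotein *GAR1*, were also listed at 0 in both groups. In all, 897 genes had 0 in both groups, 76 of them with a symbol. Other sugar transporter genes found by name were *SLC2A10* with 8.70 and 7.47 FPKM, *SLC2A8* with 4.10 and 3.900 FPKM and *SLC2A12* with 0.540 and 0.457 FPKM. *SLC2A1* and *SLC2A3* were not found by symbol.

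**Figure D2:**
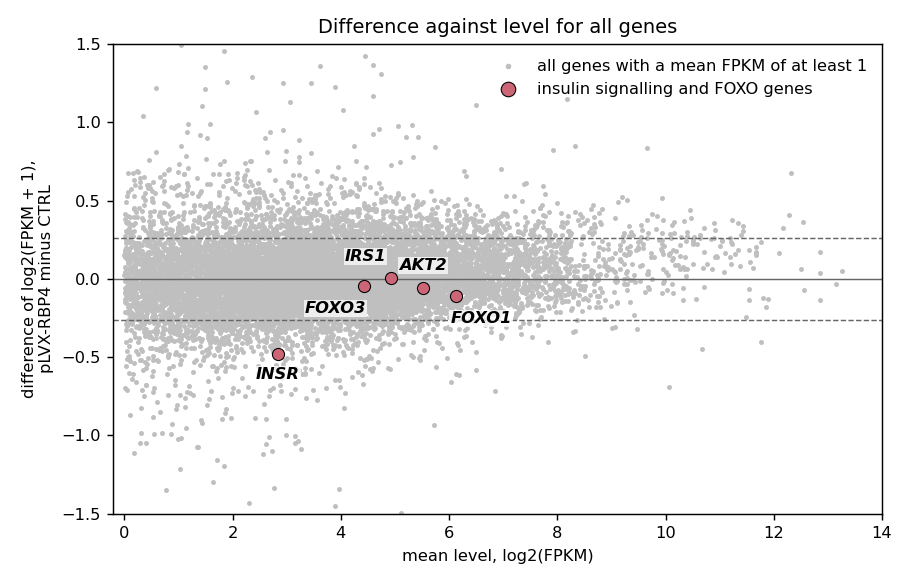
Difference of log2(FPKM + 1), pLVX-RBP4 minus CTRL (vertical axis), against the log2 of the mean FPKM of both groups (horizontal axis) for genes averaging 1 FPKM or more (grey), with the chain genes in red and dashed lines at 1.2-fold; 73 genes lie outside the axes. *INSR* lies at -0.48, below the lower dashed line, and *IRS1*, *AKT2*, *FOXO1* and *FOXO3* lie between the dashed lines, from -0.11 to 0.0083.

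The groups were next scaled to each other in other ways, because the highest gene of each group held 35.4% of the summed FPKM in CTRL GCs and 25.8% in pLVX-*RBP4* GCs. Scaling to a common sum without the 10 highest genes moved the median of all genes to -0.12, and scaling to a common sum of all genes (TPM) moved it to 0.072. *INSR* was lower in pLVX-*RBP4* GCs under each of the 5 scalings, from -0.60 to -0.40, and *FOXO1* from -0.25 to -0.032. The sign was not stable for the others. *AKT2* and *FOXO3* were lower as deposited but 0.018 and 0.033 higher under TPM scaling, and *IRS1* was 0.0083 higher as deposited but had -0.028 under upper quartile scaling. Taken relative to the median of all genes, the difference of *INSR* lay between -0.479 and -0.476 under the 5 scalings, that of *FOXO1* between -0.125 and -0.10, that of *AKT2* between -0.073 and -0.054, that of *FOXO3* between -0.053 and -0.039 and that of *IRS1* between -0.0037 and 0.013. Each scaling multiplied all values of a group by a common factor. Subtracting the median removes this factor, except for the effect of the 1 added before the log2. The narrow ranges were therefore fixed in advance and are no separate support for any difference.

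**Figure D3:**
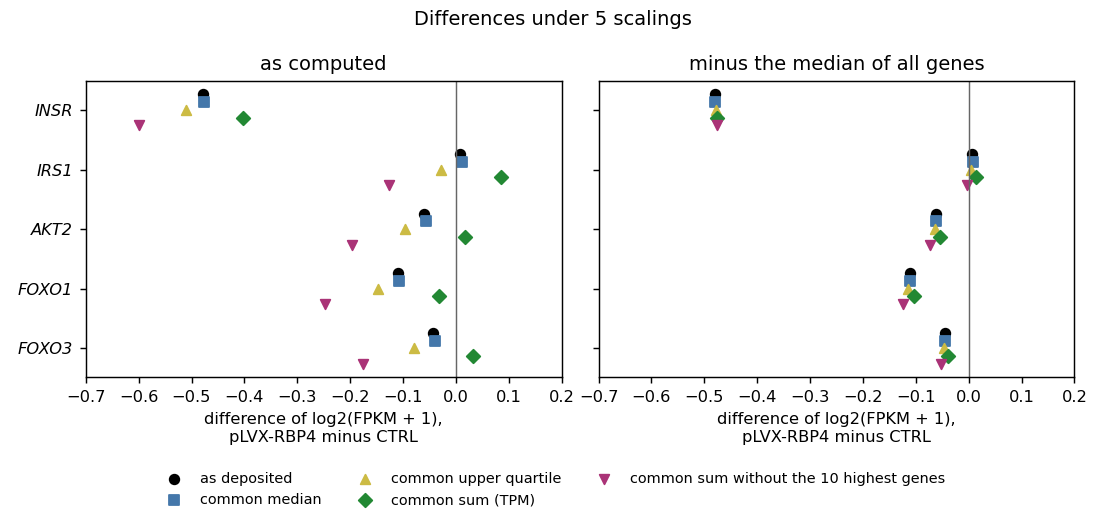
Difference of log2(FPKM + 1), pLVX-RBP4 minus CTRL (horizontal axes), of 5 chain genes under 5 scalings of the groups (symbols), as computed (left) and after subtracting the median of all genes (right). On the right the 5 symbols of *INSR* fall between -0.479 and -0.476 and those of the other genes between -0.125 and 0.013. Subtracting the median removes nearly all of a scaling, so the closeness of the symbols on the right is built in.

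The other genes of the pathway were taken from 10 lists by role, without the chain genes. Of 110 genes 88 were found by symbol, and 81 had a mean of at least 1 FPKM. Of these 81 genes, 54 (66.7%, against 49.8% of all genes) had a lower and 27 a higher value in pLVX-*RBP4* GCs, with a median difference of -0.055 against 0.0014 for all genes. The lists were chosen with earlier results of these data known. Their counts therefore only describe them and are no support for a shared direction. Under TPM scaling 32 of the 81 were lower. Set against the median of all genes, 52 to 55 lay below it under the 5 scalings, a count that rescaling a group can hardly alter. Counts against this median, here and in the lists below, only give the place of a list among all genes. Their agreement between scalings is built in and is no separate support. At least a 1.2-fold decrease was found for 6 genes (7.41%, against 8.63% of all genes), among them *PTPN1*, *PIK3CD*, *GYS1*, *LPIN1* and *ACACB*. A single gene, *EIF4E*, was at least 1.2-fold higher (1.23%, against 11.0% of all genes). These counts depended on the scaling. Under TPM scaling 4 genes were at least 1.2-fold lower (4.94%, against 4.82% of all genes) and 5 higher (6.17%, against 17.3%). Without the 10 highest genes 23 were lower (28.4%, against 22.2%) and 0 higher (against 4.59%), with *EIF4E* at 0.21. A named gene is called higher or lower below only where its sign was the same under each of the 5 scalings. The other genes are given by their values, which does not say whether their sign was stable. Counts of lower and higher values in a list are those of the deposited values unless another scaling is named. Of all genes 49.8% were lower and 50.2% higher as deposited. These shares were 35.1% and 64.9% under TPM scaling, and 72.7% and 27.3% without the 10 highest genes. In each list the gene with the highest mean, the largest increase and the largest decrease are mostly named.

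Next to the receptor, 5 of 6 adaptor genes had a lower value as deposited and 4 under TPM scaling. Under each scaling 5 of 6 lay below the median of all genes. *GRB2*, the adaptor to the RAS pathway, had 107.9 and 113.5 FPKM. *SH2B2*, an adaptor that binds the activated receptor, was lower, with 7.57 and 6.21 FPKM (-0.25). Genes that brake the receptor were below the median of all genes in 5 of 7 cases under each scaling. *PTPN1*, the phosphatase that removes phosphate from the insulin receptor, was lower, with 25.6 FPKM in CTRL GCs and 19.3 FPKM in pLVX-*RBP4* GCs (-0.39), so that both *INSR* and its phosphatase gene were past 1.2-fold downward. The level of *PTPN1* was 3.02 times that of *INSR* in CTRL GCs and 3.33 times in pLVX-*RBP4* GCs. The inhibitory adaptor *GRB10* had 68.3 and 65.5 FPKM, and *ENPP1*, a membrane inhibitor of the receptor, had 41.5 and 45.5 FPKM.

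Of 8 PI3K subunit and lipid phosphatase genes, 7 had a lower value as deposited, with a median difference of -0.15, and 6 under TPM scaling. Under each scaling 7 lay below the median of all genes. *PIK3CD*, the catalytic subunit p110-delta, was low and lower in pLVX-*RBP4* GCs, with 2.004 and 1.298 FPKM (-0.39). *PIK3CB* was also lower, with 5.62 and 4.89 FPKM (-0.17). *PIK3CA*, the catalytic subunit with the highest level, had 7.47 and 7.80 FPKM, and *PIK3CG* had 0.011 and 0.039 FPKM. *PIK3CA* made up 49.4% of the summed FPKM of the 4 catalytic genes in CTRL GCs and 55.6% in pLVX-*RBP4* GCs. *INPPL1*, which encodes the phosphatase SHIP2 that removes the PI3K product, was the highest of the list, with 99.1 and 93.1 FPKM (-0.088).

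Around AKT, 4 of 5 genes had a lower value as deposited and 2 under TPM scaling, and 4 lay below the median of all genes under each scaling. *PHLPP2*, a phosphatase of AKT, was lower at 1.26 and 0.917 FPKM (-0.24). *PPP2CA*, the catalytic subunit of protein phosphatase 2A, was higher at 120.0 and 133.7 FPKM (0.16), whereas its scaffold subunit *PPP2R1A* had 165.6 and 157.3 FPKM. The kinase gene *PDPK1* was not found by symbol.

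The mTOR branch, which couples AKT to protein synthesis, was divided. Of 13 genes 7 had a higher and 6 a lower value, and 6 lay below the median of all genes under each scaling. *EIF4E*, the cap-binding translation factor at the end of this branch, was higher, with 17.1 FPKM in CTRL GCs and 21.9 FPKM in pLVX-*RBP4* GCs (0.34). *RHEB*, the GTPase that activates mTOR, was also higher, with 212.0 and 248.4 FPKM (0.23). *TSC2*, the brake on RHEB, was lower, with 14.9 and 12.7 FPKM (-0.22). *EIF4EBP1*, the repressor of EIF4E, had the highest level, at 559.2 and 605.3 FPKM.

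In the glycogen branch, 8 of 9 genes had a lower value as deposited and 3 under TPM scaling. Depending on the scaling, 7 or 8 lay below the median of all genes. *GYS1*, glycogen synthase, was lower, with 33.0 and 27.2 FPKM (-0.27), and *GSK3B*, the kinase that AKT inhibits to release glycogen synthase, with 54.3 and 46.5 FPKM (-0.22). *PYGL*, glycogen phosphorylase, had the highest level, at 215.1 and 207.6 FPKM, and *PPP1CB* had 150.2 and 158.5 FPKM.

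Of 9 genes of glucose transport and vesicle traffic, 7 had a lower value as deposited and 3 under TPM scaling, and 7 lay below the median of all genes under each scaling. *PRKCI*, an atypical protein kinase C, was higher, with 22.9 and 26.9 FPKM (0.23). *RAB10*, the GTPase of GLUT4 vesicles, had the highest level, at 111.0 and 121.4 FPKM. *TBC1D4* and *TBC1D1*, which hold such GTPases inactive until AKT phosphorylates them, had 7.67 and 7.39 FPKM and 50.3 and 48.2 FPKM.

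The lipid genes that insulin raises in fat and liver had the lowest list median, -0.16. Of 9 genes 8 had a lower value as deposited and 6 under TPM scaling, and 8 lay below the median of all genes under each scaling. *LPIN1*, a phosphatidate phosphatase, was lower, with 11.46 and 8.398 FPKM (-0.41). *ACACB* and *ACACA*, the acetyl-CoA carboxylases, were lower, with 3.19 and 2.21 FPKM (-0.38) and 19.98 and 16.93 FPKM (-0.23). The desaturase *SCD* was lower, with 29.9 and 25.5 FPKM (-0.22). *ACLY*, ATP citrate lyase, had the highest level at 64.4 and 61.5 FPKM, and fatty acid synthase *FASN* had 23.8 and 22.8 FPKM.

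AMPK is the energy sensor that counters insulin in metabolism. Of 7 genes of this list 5 had a higher value (against 50.2% of all genes), with a median difference of 0.063, but 1 of 7 was higher without the 10 highest genes, and 2 or 3 lay below the median of all genes depending on the scaling. *PRKAA1*, the catalytic subunit, was higher, with 4.83 and 5.76 FPKM (0.21). *PRKAG2* was lower, with 36.2 and 33.7 FPKM (-0.099), and *STK11*, the upstream kinase LKB1, had the highest level at 94.8 and 93.2 FPKM.

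**Figure D4:**
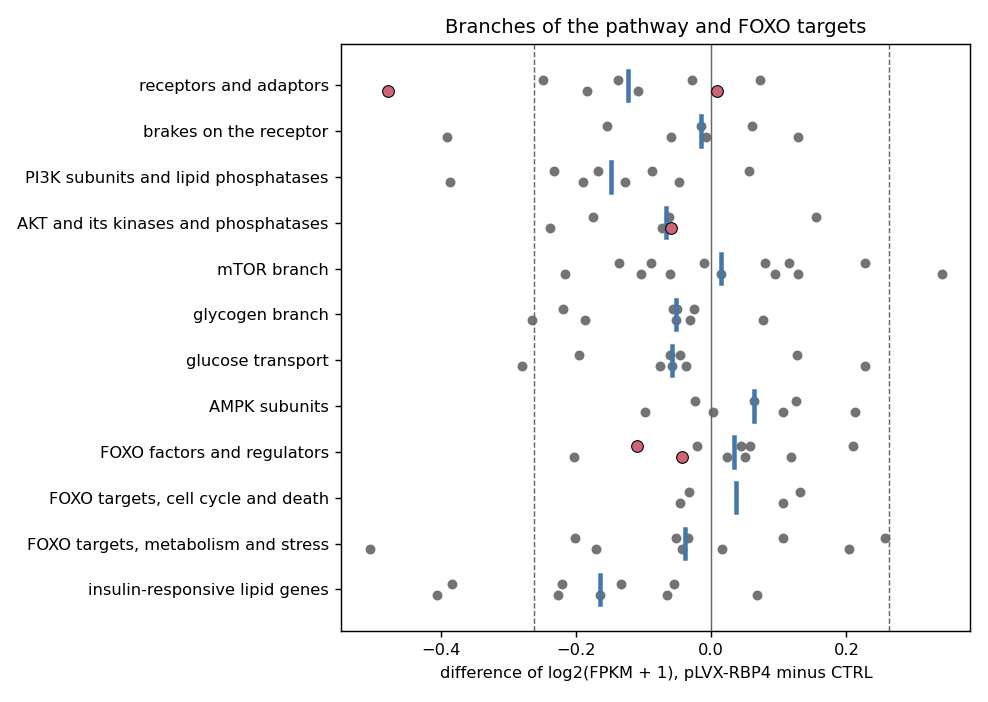
Difference of log2(FPKM + 1), pLVX-RBP4 minus CTRL (horizontal axis), of each gene with a mean of at least 1 FPKM (points) in the lists by role (vertical axis), with chain genes in red, list medians as blue bars (chain genes included) and dashed lines at 1.2-fold. *SESN3*, *INSR*, *LPIN1*, *PTPN1*, *PIK3CD* and *ACACB* lie farthest to the left, from -0.50 to -0.38, and *EIF4E* farthest to the right at 0.34.

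Genes of proteins that hold or modify FOXO factors, *FOXO4* left out, were 7 in number. Of these, 5 had a higher value as deposited (against 50.2% of all genes) and 1 without the 10 highest genes, and 1 or 2 lay below the median of all genes depending on the scaling. *SIRT1*, a deacetylase of FOXO, was higher, with 4.59 and 5.47 FPKM (0.21). *USP7*, which removes ubiquitin from FOXO, was lower, with 39.2 and 33.9 FPKM (-0.20). *YWHAZ*, one of the 14-3-3 proteins that keep phosphorylated FOXO in the cytoplasm, had the highest level, at 324.7 and 336.3 FPKM.

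Genes known from other tissues as FOXO targets showed no common direction. Of 32 genes 16 were found by symbol and 14 had a mean of at least 1 FPKM. Of these 14 genes, 8 had a lower value (57.1%, against 49.8% of all genes) and 6 a higher one, with a median difference of -0.034, and 8 lay below the median of all genes under each scaling. *SESN3*, a stress-induced inhibitor of mTORC1, was the single target past 1.2-fold (7.14%, against 8.63% of all genes downward). Its level was 27.9 FPKM in CTRL GCs and 19.4 FPKM in pLVX-*RBP4* GCs (-0.50), whereas its relatives *SESN1* and *SESN2* had 10.0 and 9.68 FPKM and 28.7 and 27.7 FPKM. The ubiquitin ligase *FBXO32* was lower, with 171.8 and 152.6 FPKM (-0.17). The autophagy gene *MAP1LC3B* was higher, with 52.6 and 63.1 FPKM (0.26), and so was catalase, *CAT*, with 43.9 and 50.8 FPKM (0.20). *GABARAPL1*, another autophagy gene, had 188.1 and 190.2 FPKM. Among targets that act on the cell cycle and death, *CITED2* had 260.5 and 285.4 FPKM and *CCNG2* 13.48 and 13.03 FPKM. *CDKN1A* was listed at 0 in both groups, and *CDKN1B*, *BCL2L11*, *PCK1* and *TXNIP* were not found by symbol.

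Markers of the labelled cell type were present. Of 11 granulosa markers 5 were found by symbol, and *FSHR*, the FSH receptor, had 9.99 and 8.47 FPKM, *INHA*, inhibin alpha, 28.6 and 27.5 FPKM, and *NR5A2* 11.8 and 11.2 FPKM. *FSHR* (-0.21) and *NR5A2* (-0.075) were lower under each scaling. *AMHR2*, the receptor of anti-Müllerian hormone, had 1.22 and 1.25 FPKM, and *GJA1*, the gap junction protein connexin 43, had 675.1 and 813.8 FPKM. *GJA1* was past 1.2-fold upward (0.27) and higher under each scaling, and with it the sum of the 5 genes was 726.7 FPKM in CTRL GCs and 862.2 FPKM in pLVX-*RBP4* GCs. Most of this sum was *GJA1*, and 3 of the 5 genes had a lower value as deposited, so the sum does not describe the granulosa markers together. *FOXL2*, *CYP19A1* and *AMH* were not found by symbol. Markers of fibroblasts and stroma were also present, and 4 of the 5 found were higher as deposited (3 of them under each scaling), among them *DCN* with 168.6 and 210.1 FPKM (0.32) and *LUM* with 6.82 and 9.10 FPKM (0.37). *PDGFRA* went the other way, with 12.6 and 11.2 FPKM (-0.16), and was lower under each scaling. The summed level of these 5 genes was 893.6 FPKM in CTRL GCs and 989.3 FPKM in pLVX-*RBP4* GCs. Most of this sum was *ACTA2*, with 644.1 and 687.8 FPKM, whose sign was not the same under each scaling. The 2 adipocyte markers found, *PLIN1* and *CIDEC*, summed to 0.905 and 0.322 FPKM, and the muscle marker *DES* had 0.584 and 0.413 FPKM. Endothelial markers (2 of 5 found) summed to 19.9 and 19.0 FPKM and leukocyte markers (4 of 5 found) to 47.6 and 54.1 FPKM, most of it *CD14*. Of the genes listed for theca, *LHCGR*, which GCs can also express, had 0.209 and 0.094 FPKM, and *INSL3* had 0 and 0.292 FPKM. These values went opposite ways and lay far below 1 FPKM, so no change of theca signal is read from them. The oocyte marker *GDF9* had 3.36 and 3.51 FPKM. In such bulk RNA, fewer cells of a type and less RNA per cell cannot be told apart, and the part of other cell types in the values of *INSR* was not tested.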

How the data were processed

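Total RNA of GCs was sequenced in 6 libraries, 3 for pLVX-*RBP4* and 3 for CTRL. The study's methods state that filtered paired-end reads were mapped by TopHat2 to the Sscrofa10.2 pig genome, and that Cuffdiff (Cufflinks) made the comparison. Tool versions and the annotation release are not given in the sources used here. The authors deposited FPKM, with 1 value per gene and group combining the libraries, so no linear model could be fitted and no p-value was computed.

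Groups were taken from the sample titles. Symbols were matched by Ensembl identifier, 10489 through a list of pig gene names and 268 through the supplementary tables. Genes and lists were chosen with earlier results of these data known. The difference of log2(FPKM + 1) was computed, and genes averaging 1 FPKM or more were kept. The 9 genes, and in each list the highest gene, the largest increase and the largest decrease, were named, with relatives in the same families, and a few of these genes are not reported here. *SESN1*, *SESN2*, *GSK3B*, *SH2B2*, *RHEB*, *ACACA*, *SCD*, *FASN*, *CAT*, *FBXO32*, *TBC1D1* and *TBC1D4* were added after their values were seen, as were the genes listed at 0, those not found by symbol, *ACACB* and the choice of markers shown. Counts past a fold were tested on simulated data with 200 changed genes. Alternatives were other pseudocounts, filters and scalings. Python 3.11.15, numpy 2.4.6 and pandas 2.3.3 were used.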

Additional observations from a re-analysis of the deposited data

How the results depend on the processing

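With 1 value per group, leaving out a library was not possible. No paired analysis was possible because the columns hold 1 value per group and carry no replicate number. A log2 value was taken as moved at a change of 0.1 and a count at more than 1.5 times. Scaling to a common sum without the 10 highest genes gave -0.60 for *INSR*, -0.25 for *FOXO1*, -0.20 for *AKT2*, -0.18 for *FOXO3*, -0.13 for *IRS1*, and medians of -0.18 for the pathway genes and -0.16 for the FOXO targets. It left 0 chain genes, 7 of 81 pathway genes and 2 of 14 targets higher. Under TPM scaling these counts were 3, 49 and 11, while under upper quartile scaling 0 chain genes were higher and without a filter 2. *PIK3R1* gave 0.39 and 1.47 with pseudocounts of 0.1 and 0.01 and 2.25 with none, an alternative added after seeing the data. Over all genes, the count at least 1.2-fold higher moved from 1364 to 2138 (TPM) and 568 (without the 10 highest). The count at least 1.2-fold lower moved from 1069 to 597, 2749 and, at a mean FPKM of at least 5, 602. Higher genes thus made up 56.1% of these calls as deposited, 43.8% under upper quartile scaling, 78.2% under TPM scaling and 17.1% without the 10 highest. The 343 genes changed at least 1.5-fold became 556, 596 and 547 with pseudocounts of 0.1, 0.01 and none, and 168 at a mean of at least 5. The other 90 values did not move. *INSR* was at least 1.2-fold lower in each alternative run for it.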

Other observations

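Other hormone receptor genes were looked at beside *INSR* after their values were seen. *ESR1*, the estrogen receptor alpha, had 8.90 FPKM in CTRL GCs and 3.91 FPKM in pLVX-*RBP4* GCs, a log2 difference of -1.01, and it lay between -1.13 and -0.93 under the 5 scalings. The IGF2 receptor *IGF2R* had 47.0 and 42.7 FPKM (-0.14), the adiponectin receptor *ADIPOR2* 25.6 and 23.1 FPKM (-0.14), and the glucocorticoid receptor *NR3C1* 21.1 and 21.6 FPKM. The set also held the cytokine receptor *TNFRSF1A*, with 117.4 and 108.5 FPKM (-0.11). Of the 6 receptor genes of this set with a mean of at least 1 FPKM, 5 had a lower value (against 49.8% of all genes), or 4 under TPM scaling, and 5 lay below the median of all genes under each of the 5 scalings. Because the genes were chosen with their values known, these counts only describe the set and are no support for a shared direction.

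Genes that act on the insulin receptor's maturation, splicing and turnover were also chosen after their values were seen. Of 18 genes 11 had a higher value (61.1%, against 50.2% of all genes), or 5 without the 10 highest genes, and 11 lay above the median of all genes under each scaling. For the same reason these counts only describe the set. As deposited, none of the 18 was past 1.2-fold. The proprotein convertase *PCSK5* was higher, with 11.6 and 13.8 FPKM (0.23), and *FURIN*, which cleaves the proreceptor, had 77.9 and 75.7 FPKM. The splicing regulators of the receptor exon gave 16.8 and 14.8 FPKM for *CELF1* (-0.17) and 22.0 and 24.0 FPKM for *MBNL1*. Insulin-degrading enzyme, *IDE*, had 11.0 and 11.9 FPKM.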
